A study of Oryza sativa with 32 samples.

Results

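The afternoon step of a day course of rice panicles was described, as the 4 libraries taken 10.5 h after dawn against the 4 libraries taken 7 h after dawn. The 8 libraries were chosen by their labelled time from the 32 of the series, which hold 4 at each of 8 times, and every gene with enough counts was tested, 25766 of 37829 gene identifiers. All libraries came from Oryza sativa IR64, an indica rice grown untreated in a field plot in the Philippines in the dry season, from panicles (the flowering heads) at 50% flowering, so time of day is what the labels change between the groups. RNA was selected by its poly(A) tail and made into libraries that keep the strand. No label tells if the replicates are separate plants, plots or pools. Their spread, on which each p-value rests, may therefore be technical. The weather, light and temperature of the 2 times are likewise not given.

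A plant clock is a loop of genes that repress each other in turn through the day. The MYB factor LHY belongs to its morning, the pseudo-response regulators (PRR genes) to the day, and the evening complex of LUX, ELF3 and ELF4 to the time around dusk. Many genes of photosynthesis, pigment synthesis, starch and water transport follow this clock or the light, and a flowering panicle holds green husks, anthers with pollen, and ovaries, whose transcripts are measured here as a mixture.

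The libraries held 13.5 to 23.7 M counts (M for mega) at 10.5 h and 15.3 to 24.0 M at 7 h, so that 3 counts, taken as the floor, stood for 0.127 to 0.223 CPM (counts scaled to library size) and 0.125 to 0.196 CPM. All 14 checked floral organ identity genes, MADS-box and related factors that define a floret, were present in the 8 libraries, with summed levels of 2516 to 3236 CPM at 10.5 h, against 2846 to 3349 CPM at 7 h, and none passed the test. Markers of anther cells and of dividing cells set single libraries apart. The 4 mature pollen markers (MADS62, MADS63, MADS68 and EXPB13, whose pairing of symbol and identifier was not checked) summed to 343, 172, 7.88 and 134 CPM in replicates 1 to 4 of 10.5 h, against 131, 144, 49.7 and 127 CPM in replicates 1 to 4 of 7 h. The 6 markers of the tapetum, the layer that feeds pollen, summed to 120, 43.2, 24.9 and 65.4 CPM at 10.5 h and to 37.9, 44.1, 35.1 and 57.7 CPM at 7 h. The 8 cell division genes summed to 110, 261, 241 and 260 CPM at 10.5 h and to 210, 275, 327 and 348 CPM at 7 h. Replicate 1 of 10.5 h was thus highest in pollen and tapetum markers and lowest in cell division genes, and replicate 3 of 10.5 h was lowest in pollen and tapetum markers. No tested marker of these lists was at 0 in any of the 8 libraries, and none of these lists had a member that passed the edgeR test, while DESeq2 called 1 tapetum gene, EAT1 (adjusted p = 0.0305). In a bulk sample, fewer cells of a type and less RNA per cell cannot be told apart. The part of these markers in the differences below was not tested, and counts are also given without these 2 libraries.

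**Figure D1:**
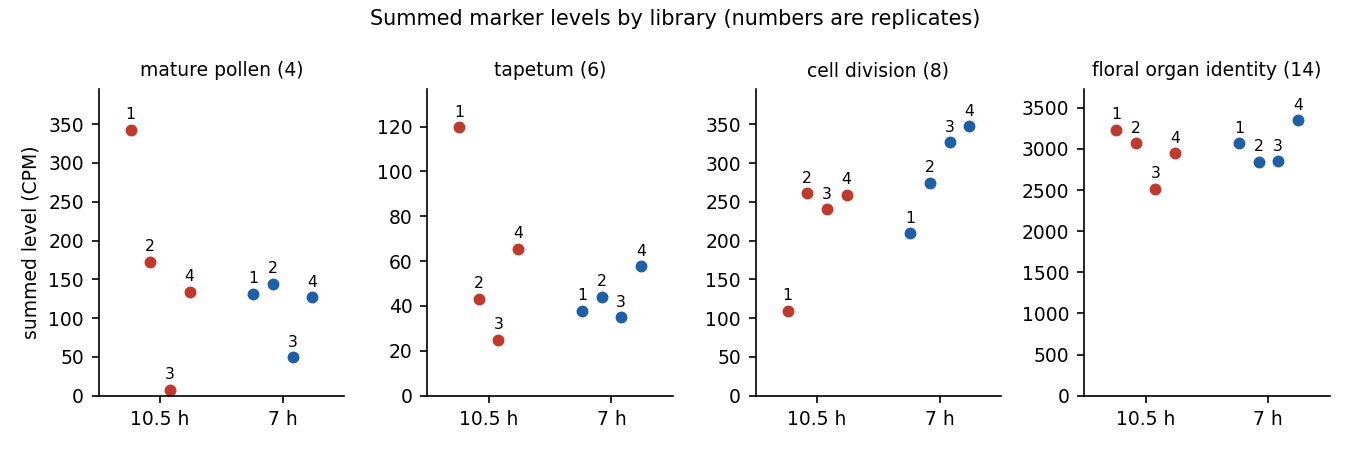
Summed levels (CPM, from 0) of the 4 mature pollen, 6 tapetum, 8 cell division and 14 floral organ identity genes in each library, numbered by replicate, with 10.5 h in red and 7 h in blue. Replicate 1 of 10.5 h lies highest for pollen (343 CPM) and lowest for cell division (110 CPM), and replicate 3 of 10.5 h lies lowest for pollen (7.88 CPM).

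Over all genes, more transcripts fell in the afternoon than rose in the edgeR test, whereas DESeq2 called 807 higher and 758 lower. Of the 25766 genes tested, 467 (1.81%) were higher and 602 (2.34%) lower at 10.5 h than at 7 h, 1069 together (4.15%), at an adjusted p under 0.05 in edgeR's quasi-likelihood test (Benjamini-Hochberg adjustment). The median log2 difference was 0.93 among those that rose and -1.15 among those that fell, and -0.00083 over all genes tested. At least 2-fold were 204 rises (0.792%) and 369 falls (1.43%). The groups of libraries did not overlap in 428 of the 467 rises and 584 of the 602 falls, while over all genes tested, called or not, 1376 (5.34%) lay wholly above and 1454 (5.64%) wholly below. Without replicates 1 and 3 of 10.5 h, a choice made after the data were seen, 207 genes were higher and 290 lower. Without replicate 4 of 7 h, 310 were higher and 531 lower. Calls were more frequent at higher levels: in the highest of 4 equal classes of level 430 of 6442 genes were called, and in the lowest 88 of 6442.

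Over the whole day, the 204 genes that rose at least 2-fold and the 369 that fell at least 2-fold stood apart in when they were highest and lowest. This is a description, since these genes were chosen by the difference between 2 of the 8 times. Of the 204, 101 had their highest mean of the 8 times at 10.5 h (49.5%, against 13.15% of all genes tested). A further 42 were highest at 14 h (20.6%, against 9.96%) and 33 at dusk (16.2%, near the 14.3% of all genes tested). Lowest means of the 204 lay at dawn for 53 (26.0%, against 13.7%), at 3.5 h for 69 (33.8%, against 17.3%) and at 7 h for 56 (27.5%, against 10.4%). Of the 369, 147 were highest at 3.5 h (39.8%, against 13.8% of all genes tested), 92 at dawn (24.9%, against 13.2%) and 84 at 7 h (22.8%, against 10.9%). At 10.5 h, 35 of the 369 were at their lowest mean (9.49%, near the 11.4% of all genes tested), while 129 were lowest at dusk (35.0%, against 10.0% of all genes tested) and 166 at 14 h (45.0%, against 8.87%). The falling genes thus mostly reached their lowest means after the afternoon, whereas the rising genes most often had their highest mean at its end.

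**Figure D2:**
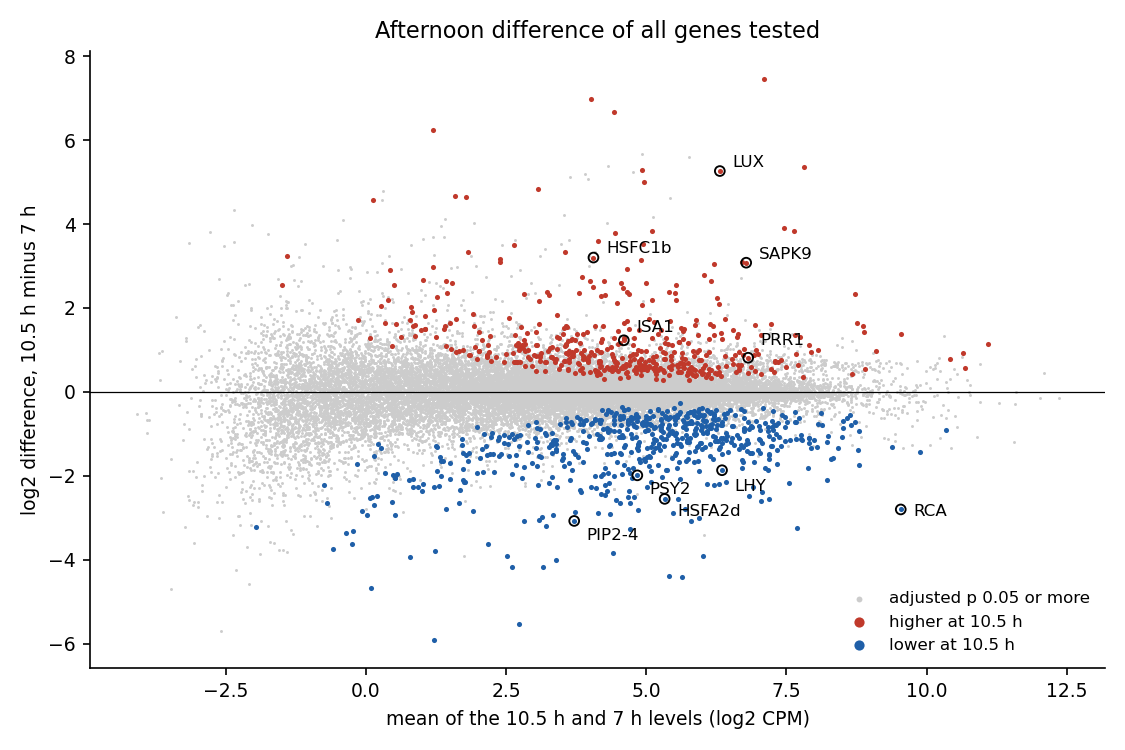
Each point is 1 of the 25766 genes tested, with the mean level of the 2 times on the horizontal axis (log2 CPM) and the log2 difference of 10.5 h minus 7 h on the vertical axis. Red points (467) were higher and blue points (602) lower at an adjusted p under 0.05, and circles mark named genes, among them LUX at 5.26 and RCA at -2.80.

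Named genes were taken from 39 lists of rice genes with known roles. Only symbols whose chromosome and order in a reference table matched their identifier are named, 289 of 416 pairs, and 273 of these 289 were tested. Of the 273, 9 rose (3.30%, against 1.81% of all genes tested) and 23 fell (8.42%, against 2.34%). Members and lists were chosen with earlier results of these data known. These shares, and those of single lists below, are therefore a description and not a test. Without replicates 1 and 3 of 10.5 h, 21 of the 273 passed in place of 32. The rises and falls lay in 11 lists, and 26 lists with 170 tested members had no checked member called in edgeR. Of these 170, 24 had an unadjusted p under 0.05, DESeq2 called 4 and limma 0. Of the 25766 genes tested, DESeq2 called 1565 and limma 1051. The share of all genes at that unadjusted p is not given here, so nothing is read from the 24.

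**Figure D3:**
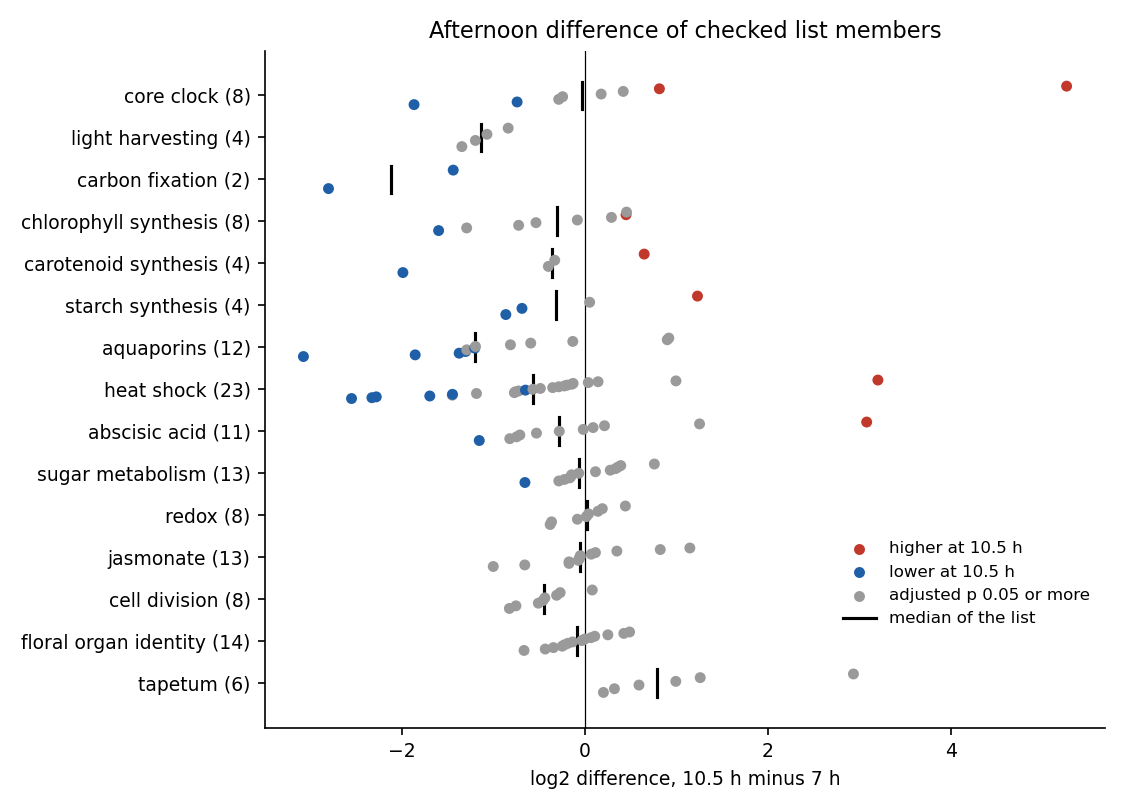
Log2 difference of 10.5 h minus 7 h for every tested, checked member of 15 lists, with the number of members in brackets. Red and blue points passed the test, grey points did not, and black bars are list medians. Light-harvesting, aquaporin and heat shock medians lie at -1.13, -1.20 and -0.57, while floral organ identity lies at -0.08.

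In the clock, the evening gene LUX rose far more than any other member, PRR1 rose, and LHY and PRR37 fell, so that 4 of 8 checked clock genes passed the test, against 4.15% of all genes tested. LUX (OS01G0971800), the MYB-type factor of the evening complex, stood at 163, 125, 181 and 150.1 CPM in replicates 1 to 4 of 10.5 h and at 5.66, 3.54, 2.82 and 4.19 CPM in those of 7 h. Every 10.5 h library was far above every 7 h library, a log2 difference of 5.26 ± 0.41 (edgeR, adjusted p = 1.2e-09). The error after each log2 difference is its standard error, computed back from the test. PRR1 (OS02G0618200), the rice counterpart of the Arabidopsis repressor TOC1, stood at 145, 138, 147 and 146 CPM at 10.5 h, against 92.8, 75.9, 80.0 and 78.4 CPM at 7 h. Its 10.5 h libraries lay close together and above all 7 h libraries (0.81 ± 0.17, adjusted p = 0.00269). LHY (OS08G0157600) stood at 57.0, 32.0, 24.103 and 27.5 CPM at 10.5 h, against 199, 102, 129.8 and 81.8 CPM at 7 h, again with no overlap, although replicate 1 was the highest at both times (-1.87 ± 0.38, adjusted p = 0.00219). PRR37 (OS07G0695100), a day-phase repressor that also delays flowering, stood at 104, 109, 118 and 84.9 CPM at 10.5 h, against 174, 189, 201 and 129.7 CPM at 7 h (-0.74 ± 0.17, adjusted p = 0.00882). Replicate 4 was the lowest of its group at both times for PRR37.

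The other 4 checked clock genes did not pass. GI (OS01G0182600), a large clock protein that also controls flowering, averaged 1709 ± 49.6 CPM at 10.5 h, against 1278 ± 174 CPM at 7 h (SD, n = 4 each), and its libraries did not overlap (adjusted p = 0.147). PRR73 (OS03G0284100) averaged 437 ± 36.4 CPM and 532 ± 36.0 CPM at the same times, also without overlap (adjusted p = 0.612). Each test takes its spread from the 32 libraries of all 8 times. The SDs printed beside the means, here and below, cover 4 libraries each and do not alone set the p-value. PRR95 (OS09G0532400) averaged 268 ± 79.9 CPM at 10.5 h, against 317 ± 65.9 CPM at 7 h, and ELF3-1 (OS06G0142600), the scaffold of the evening complex, 41.6 ± 4.84 CPM and 36.8 ± 4.33 CPM, with overlapping libraries in both (adjusted p = 0.784 and 0.737). Their log2 differences were -0.24 ± 0.25 and 0.18 ± 0.16. Of 6 further clock identifiers whose symbols were not checked, 1 rose, against 1.81% of all genes tested.

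**Figure D4:**
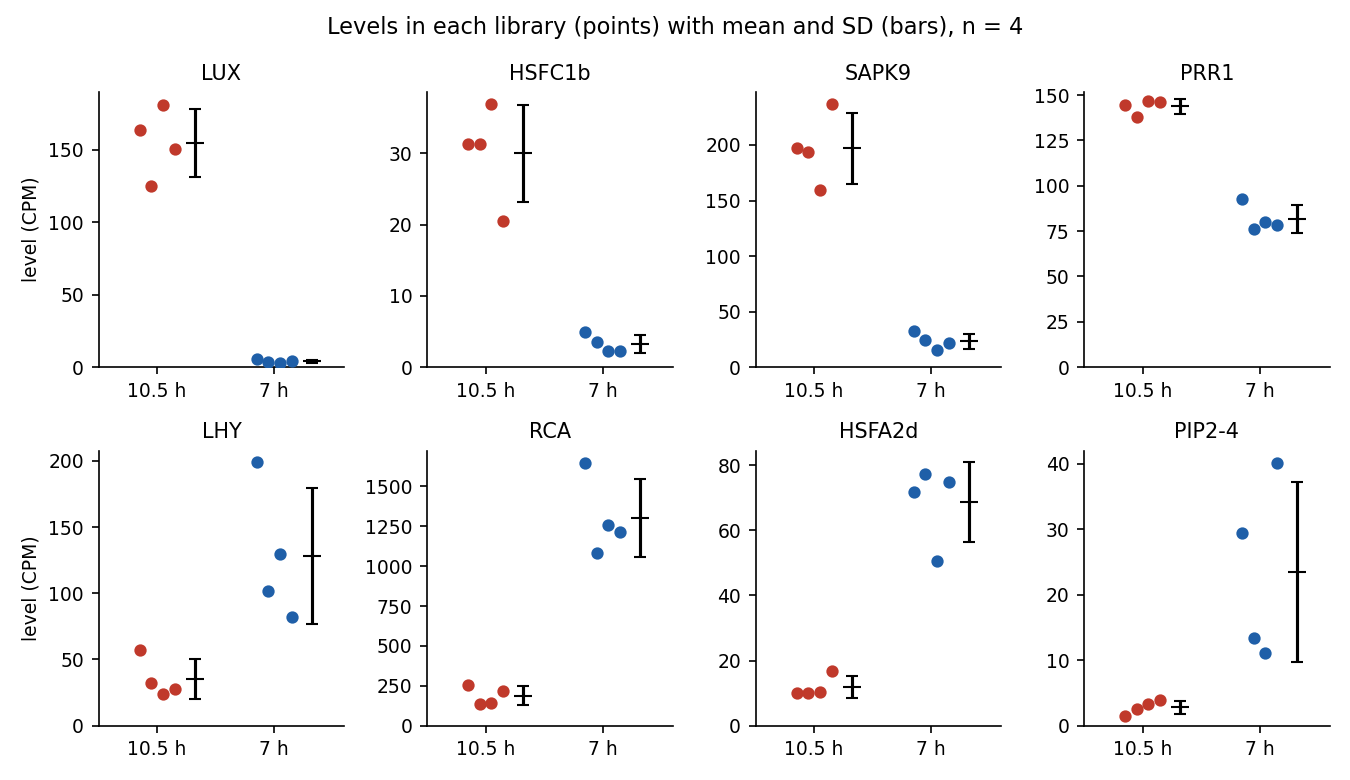
Levels (CPM, axes from 0) of 8 genes in the 4 libraries of 10.5 h (red) and the 4 of 7 h (blue), replicates 1 to 4 from left to right, with mean and SD beside them. LUX, HSFC1b, SAPK9 and PRR1 lie higher at 10.5 h, and LHY, RCA, HSFA2d and PIP2-4 lie lower, with no overlap in any of the 8.

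Both checked carbon fixation genes fell in the afternoon, where 2.34% of all genes tested fell. RCA (OS11G0707000), rubisco activase, which keeps the carbon-fixing enzyme working, stood at 256, 135, 141 and 216 CPM at 10.5 h against 1649, 1081, 1257 and 1217 CPM at 7 h. All 10.5 h libraries lay far below (-2.80 ± 0.31, adjusted p = 6.8e-07). ALDP (OS11G0171300), the plastid aldolase of the Calvin cycle, stood at 622, 465, 498 and 459 CPM at 10.5 h, against 1718, 1474, 1225 and 1118 CPM at 7 h (-1.44 ± 0.26, adjusted p = 0.000772). These 2 are the checked carbon fixation genes, and none of the 8 identifiers whose pairing was not checked passed the test.

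The light-harvesting proteins, which bind chlorophyll and pass light energy to the photosystems, did not pass the test although all lay lower. LHCB2 (OS03G0592500) stood at 931, 686, 1016 and 484 CPM at 10.5 h, against 2281, 2411, 1819 and 1398 CPM at 7 h, with every 10.5 h library below every 7 h library (-1.34 ± 0.40, adjusted p = 0.0571). All 13 listed identifiers of this family, 4 of them checked, had negative differences, and in 10 of the 13 the libraries did not overlap (5.64% of all genes tested lay wholly below), but 0 of 13 were called by edgeR, with adjusted p between 0.0571 and 0.840. At an unadjusted p under 0.05 there were 9, and DESeq2 called 3 and limma 0. Of the 25766 genes tested, these 2 tools called 1565 and 1051, and the share at that unadjusted p is not given here. Their summed level was 7250.3 to 12243 CPM at 10.5 h, against 14720.0 to 24310.3 CPM at 7 h. In the fit of the 8 libraries of these 2 times alone, 6 of the 13 were called, LHCB2 among them (adjusted p = 0.0383). That fit called 964 genes in all. LHCB2 was also called with library totals alone (adjusted p = 0.0204), with DESeq2 (0.0179) and with the replicate block in the fit of 32 libraries (0.0104), and the cause of these changes of call was not tested. Reads of near-identical LHCB1 copies can be split or lost in counting, and those values are uncertain.

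Chlorophyll and carotenoid synthesis each had a rise beside a fall. CHLH (OS03G0323200), the large subunit of the magnesium chelatase at the entry to chlorophyll, stood at 189.9, 131, 169 and 138 CPM at 10.5 h, against 512, 532, 476 and 377 CPM at 7 h, a fall without overlap (-1.60 ± 0.28, adjusted p = 0.000481). GSA (OS08G0532200), an aminotransferase early in the same pathway, averaged 129.7 ± 13.7 CPM at 10.5 h, against 94.9 ± 7.65 CPM at 7 h (adjusted p = 0.0442). It was the only called rise among 8 checked members, of which 3 had positive differences, and their median log2 difference was -0.31. CHLD, not called, lay higher by 0.46 ± 0.16, also without overlap (edgeR, adjusted p = 0.118). Of 4 chlorophyll identifiers whose pairing was not checked, 3 fell, against 2.34% of all genes tested. In carotenoid synthesis, PSY2 (OS12G0626400), a phytoene synthase at the first step, stood at 17.9, 7.79, 7.05 and 13.5 CPM at 10.5 h, against 56.1, 48.1, 32.2 and 46.6 CPM at 7 h (-1.99 ± 0.30, adjusted p = 7.1e-05). PDS (OS03G0184000), the phytoene desaturase that acts next, stood at 114, 120.4, 139 and 114 CPM at 10.5 h, against 79.6, 69.1, 86.8 and 75.8 CPM at 7 h (0.65 ± 0.10, adjusted p = 5.7e-05). Both lay without overlap of libraries, in opposite directions. The other 2 checked members, the further phytoene synthases PSY1 and PSY3, did not pass (adjusted p = 0.484 and 0.671).

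Starch synthesis was also mixed. ISA1 (OS08G0520900), a debranching isoamylase that shapes starch granules, stood at 41.0, 32.9, 29.4 and 32.7 CPM at 10.5 h, against 11.1, 13.6, 15.9 and 17.3 CPM at 7 h, with all 10.5 h libraries above (1.23 ± 0.21, adjusted p = 0.000438). AGPS2 (OS08G0345800), the small subunit of the enzyme that makes ADP-glucose, stood at 119.8, 118, 129 and 98.4 CPM at 10.5 h, against 199.9, 177, 208 and 165 CPM at 7 h, with all 10.5 h libraries below (-0.69 ± 0.15, adjusted p = 0.00446). SSI (OS06G0160700), a starch synthase, averaged 76.4 ± 9.25 CPM at 10.5 h, against 139 ± 30.8 CPM at 7 h (adjusted p = 0.0317). Of 17 starch synthesis identifiers whose pairing was not checked, 4 fell (23.5%, against 2.34% of all genes tested). Among 13 sugar metabolism genes 1 passed (7.69%, against 4.15% of all genes tested). It was the sucrose transporter SUT2 (OS12G0641400), with 60.7 ± 4.03 CPM at 10.5 h, against 95.6 ± 24.4 CPM at 7 h (adjusted p = 0.0295).

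Heat shock genes fell more often than they rose, with 1 factor moving strongly the other way. Of 23 tested members 6 fell (26.1%, against 2.34% of all genes tested) and 1 rose, with a median log2 difference of -0.57, and their summed level was 312 to 348 CPM at 10.5 h against 343 to 502 CPM at 7 h. HSFC1b (OS01G0733200), a heat stress transcription factor of class C, stood at 31.3, 31.4, 36.9 and 20.6 CPM at 10.5 h, against 4.97, 3.58, 2.29 and 2.23 CPM at 7 h. All its 10.5 h libraries were above all 7 h libraries (3.20 ± 0.25, adjusted p = 1.1e-09). HSFA2d (OS03G0161900), of class A, whose members activate heat shock genes, stood at 9.89, 9.94, 10.3 and 16.8 CPM at 10.5 h, against 71.8, 77.2, 50.5 and 74.9 CPM at 7 h. The 10.5 h libraries lay below, with replicate 4 the highest of them (-2.55 ± 0.30, adjusted p = 1.4e-06). The class B factor HSFB2c (OS09G0526600) stood at 5.54, 3.96, 5.17 and 8.80 CPM at 10.5 h, against 30.5, 21.8, 14.4 and 47.1 CPM at 7 h, and replicate 4 was the highest at both times (-2.28 ± 0.38, adjusted p = 0.000234).

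Of the remaining heat shock calls, HSFB2a (OS04G0568700), also of class B, averaged 1.78 ± 0.433 CPM at 10.5 h, against 4.84 ± 0.378 CPM at 7 h (-1.45 ± 0.31, adjusted p = 0.00388). HSP24.1 (OS02G0758000), a small heat shock protein that keeps other proteins from clumping, stood at 9.07, 2.86, 3.25 and 3.42 CPM at 10.5 h, against 26.8, 12.3, 10.6 and 43.9 CPM at 7 h, with replicate 1 high at 10.5 h and replicate 4 high at 7 h (-2.33 ± 0.51, adjusted p = 0.00521). Without replicates 1 and 3 of 10.5 h HSFB2a missed the threshold (adjusted p = 0.0729), and in the fit of 8 libraries HSP24.1 did (adjusted p = 0.0730). HSFA2c and HSP18.0 were the last 2 called, at mean levels of 13.2 and 1.33 CPM at 10.5 h against 20.7 and 4.34 CPM at 7 h, and their libraries overlapped. HSP101, a chaperone that dissolves protein clumps, had 18.6 CPM at 10.5 h, against 27.6 CPM at 7 h without overlap and was not called (adjusted p = 0.124).

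In the abscisic acid list, genes of the hormone that closes stomata and marks drought, a kinase rose and a synthesis enzyme fell. SAPK9 (OS12G0586100), a protein kinase of the SnRK2 family that carries the signal of the hormone, stood at 198, 194, 159.5 and 237 CPM at 10.5 h, against 32.2, 24.0, 15.4 and 21.6 CPM at 7 h, far above in every library (3.08 ± 0.35, adjusted p = 1.1e-06). ZEP1 (OS04G0448900), zeaxanthin epoxidase, which makes precursors of the hormone and also serves the light-protecting xanthophyll cycle, stood at 102, 113, 189 and 137 CPM at 10.5 h, against 305, 288, 300.1 and 311 CPM at 7 h (-1.15 ± 0.20, adjusted p = 0.000467). The other 9 checked members tested did not pass, among them SAPK10 with 12.1 CPM at 10.5 h, against 5.07 CPM at 7 h, without overlap (adjusted p = 0.139). Of 5 abscisic acid identifiers whose pairing was not checked, 1 fell (20.0%, against 2.34% of all genes tested). SAPK1, SAPK2 and SAPK8 had differences of -0.02, -0.28 and 0.09 on the log2 scale. A list of 14 further kinases and phosphatases of this hormone's signal, written after first values of these data had been seen, had 0 calls in edgeR, DESeq2 and limma, with 2 at an unadjusted p under 0.05 and a lowest adjusted p of 0.250 for PP2C68.

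Aquaporins, the water channels of plant membranes, fell in 5 of 12 tested members (41.7%, against 2.34% of all genes tested), and the other 7 did not pass. The median log2 difference of the 12 was -1.20. Their summed level was 1852 to 2720 CPM at 10.5 h, against 2943 to 4307 CPM at 7 h. Among the channels of the outer cell membrane, PIP2-4 (OS07G0448100) stood at 1.41, 2.60, 3.25 and 3.85 CPM at 10.5 h, against 29.4, 13.3, 11.1 and 40.1 CPM at 7 h, and fell the most in the list (-3.07 ± 0.44, adjusted p = 3.7e-05). PIP2-1 (OS07G0448800) stood at 264, 246, 217 and 248 CPM at 10.5 h, against 942, 456, 505 and 621 CPM at 7 h (-1.37 ± 0.22, adjusted p = 0.000159). PIP1-2 (OS04G0559700) stood at 374, 375, 324 and 462 CPM at 10.5 h, against 1174, 645, 805 and 1160.1 CPM at 7 h (-1.30 ± 0.22, adjusted p = 0.000252). All these libraries kept apart, and replicates 1 and 4 were the highest at 7 h for PIP1-2, PIP2-1 and PIP2-4. TIP1-1 (OS03G0146100), a channel of the vacuole membrane, stood at 159, 194, 195 and 174 CPM at 10.5 h, against 457, 322, 408 and 475 CPM at 7 h (-1.20 ± 0.19, adjusted p = 0.000144). PIP2-2, the fifth call, averaged 62.6 ± 25.7 CPM at 10.5 h, against 226 ± 90.6 CPM at 7 h (SD, n = 4 each, adjusted p = 0.0265). PIP2-7 had 693 CPM at 10.5 h, against 367 CPM at 7 h and did not pass (adjusted p = 0.315). PIP2-4 and PIP2-5 are closely related copies, so the split of reads between them is uncertain.

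A second list of aquaporins, written after first values had been seen, moved in both directions, with 2 rises and 1 fall among 9 tested, against 1.81% and 2.34% of all genes tested. TIP4-1 (OS05G0231700), of the vacuole membrane, stood at 327, 304, 402 and 183 CPM at 10.5 h, against 148, 125, 162 and 54.8 CPM at 7 h, with replicate 4 lowest at both times (1.31 ± 0.30, adjusted p = 0.00790). NIP2-2 (OS06G0228200), a silicic acid channel, averaged 82.5 ± 11.3 CPM at 10.5 h, against 41.1 ± 8.25 CPM at 7 h (adjusted p = 0.0164). NIP3-1 (OS10G0513200), a boron channel, averaged 25.7 ± 2.13 CPM at 10.5 h, against 55.6 ± 22.8 CPM at 7 h (adjusted p = 0.0256). TIP4-1 missed the threshold in the fit of 8 libraries (adjusted p = 0.0813) and without replicates 1 and 3 of 10.5 h (0.212).

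Of 9 cytokinin genes 1 was called (11.1%, against 4.15% of all genes tested), CKX2 (OS01G0197700), an oxidase that breaks the hormone down. It stood at 1.65, 5.13, 2.88 and 4.29 CPM at 10.5 h, against 35.9, 8.72, 9.16 and 8.77 CPM at 7 h, where replicate 1 was far above the others (adjusted p = 0.0258). Without replicate 1 of 7 h the difference was -1.35 and the adjusted p 0.254.

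Several calls near the threshold were lost when 1 library was left out. SUT2, NIP3-1 and PIP2-2 were lost without replicate 1 of 7 h (adjusted p = 0.204, 0.186 and 0.120). SUT2 was also lost without replicate 1, 2 or 3 of 10.5 h (0.0670, 0.0786 and 0.0957), and NIP3-1 without any library of 10.5 h (0.0527 to 0.0768). CKX2 was lost, beside replicate 1 of 7 h, without replicate 1, 3 or 4 of 10.5 h (0.0980, 0.0848 and 0.0521). PIP2-2 was lost without replicate 4 of 7 h (0.0539) and without replicate 2, 3 or 4 of 10.5 h (0.0771, 0.108 and 0.0643). GSA was lost in 7 of 8 such fits, all but that without replicate 4 of 10.5 h (0.0534 to 0.174). SSI was lost without replicate 3 or 4 of 7 h (0.104 and 0.112) and without replicate 1, 2 or 4 of 10.5 h (0.0977, 0.0877 and 0.0731). NIP2-2 was lost without replicate 2 or 4 of 7 h (0.0526 and 0.0755) and without replicate 3 of 10.5 h (0.0618). HSFA2c was lost without replicate 1, 2 or 4 of 7 h or replicate 1, 2 or 3 of 10.5 h (0.0600 to 0.104), and HSP18.0 without replicate 4 of 7 h or any library of 10.5 h (0.0512 to 0.472). None of these 9 genes changed direction in any of those fits.

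Among the lists with no checked member called, genes of other daytime and flowering processes were measured at both times. The photoreceptor PHOT2 (OS04G0304200), a blue-light receptor that moves chloroplasts, stood at 113, 105, 131 and 118 CPM at 10.5 h, against 196, 176, 197 and 215 CPM at 7 h, apart in every library but not called (edgeR, adjusted p = 0.0783), while the 8-library fit gave 0.00825. Of 9 photoperiod and flowering genes, 13 jasmonate genes, 6 gibberellin, 9 ethylene, 9 auxin, 7 brassinosteroid and 4 strigolactone genes, none was called by edgeR. The same held for 8 redox genes, 7 cold and dehydration genes, 5 of nitrogen assimilation, 13 of mineral transport, 9 of cellulose and lignin, 4 stress factors, 7 of meiosis and 3 of small RNA pathways. The single checked members tested of photorespiration, starch breakdown, endosperm storage and light signalling, and the 3 reference genes, also stayed without a call. All these counts cover checked symbols alone. Of identifiers whose pairing was not checked, 2 of 7 in photorespiration and 2 of 4 in light signalling fell. So did 1 of 2 in redox and 1 of 6 in mineral transport, against 2.34% of all genes tested. In nitrogen assimilation 1 of 3 rose, against 1.81%. The reference gene GAPDH (OS08G0126300) averaged 1825 ± 264 CPM at 10.5 h, against 2151 ± 271 CPM at 7 h (adjusted p = 0.398). EAT1 (OS04G0599300), a regulator of tapetum cell death, stood at 8.60, 0.325, 0.250 and 1.67 CPM at 10.5 h, against 0.378, 0.130, 0.264 and 0.655 CPM at 7 h, where replicate 1 of 10.5 h alone was high (adjusted p = 0.0904 in edgeR and 0.0305 in DESeq2). The 3 checked genes of inflorescence branching had too few counts to be tested. A missed threshold does not show that these genes were equal at the 2 times.

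The afternoon step was then compared with the steps on either side of it, as a test of whether the change over a step differed. The labels give no hours for dusk, so the length of the step to dusk is unknown. The turn at 10.5 h therefore compares changes between labelled times and does not test a rate. The step to 10.5 h differed from the step between 3.5 and 7 h in 272 genes (1.06%), and the step to dusk differed from the afternoon step in 134 genes (0.520%). Without replicate 1 of 7 h the first count was 125, without replicate 1 of 10.5 h the second was 86, and without replicates 1 and 3 of 10.5 h the counts were 165 and 21. These contrasts share libraries, so the steps are given side by side and no overlap between them is read. LUX changed by 1.76 on the log2 scale between 3.5 and 7 h, by 5.26 in the afternoon and by -0.41 to dusk, and both turns passed (adjusted p = 0.00641 and 7.0e-07). SAPK9 changed by -0.05, 3.08 and 0.28 over the same steps, so that its change lay in the afternoon step, and both turns passed (adjusted p = 0.00620 and 0.00833). HSFA2d likewise changed by -0.18, -2.55 and -0.21 (adjusted p = 0.00686 and 0.0288).

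Other named genes turned at one end only. HSFC1b changed by 1.82 between 3.5 and 7 h, by 3.20 in the afternoon and by -0.40 to dusk, and the turn at 10.5 h passed (adjusted p = 1.4e-06). RCA changed by -2.07, -2.80 and 0.25, again with the later turn (adjusted p = 0.00363), and its step to dusk did not pass (adjusted p = 0.791). PDS changed by -0.01, 0.65 and -0.19 with the later turn (adjusted p = 0.00845), and TIP4-1 by 2.40, 1.31 and -0.81 (adjusted p = 0.0450). ZEP1 changed by 0.47, -1.15 and -1.22, with the turn at 7 h called (adjusted p = 0.0102). CKX2, which was high in replicate 1 of 7 h alone, changed by 2.16, -2.17 and 0.09, also with the turn at 7 h (adjusted p = 0.0128). LHY, PRR1, PRR37, CHLH, PSY2, PIP2-4 and TIP1-1 had no called turn.

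**Figure D5:**
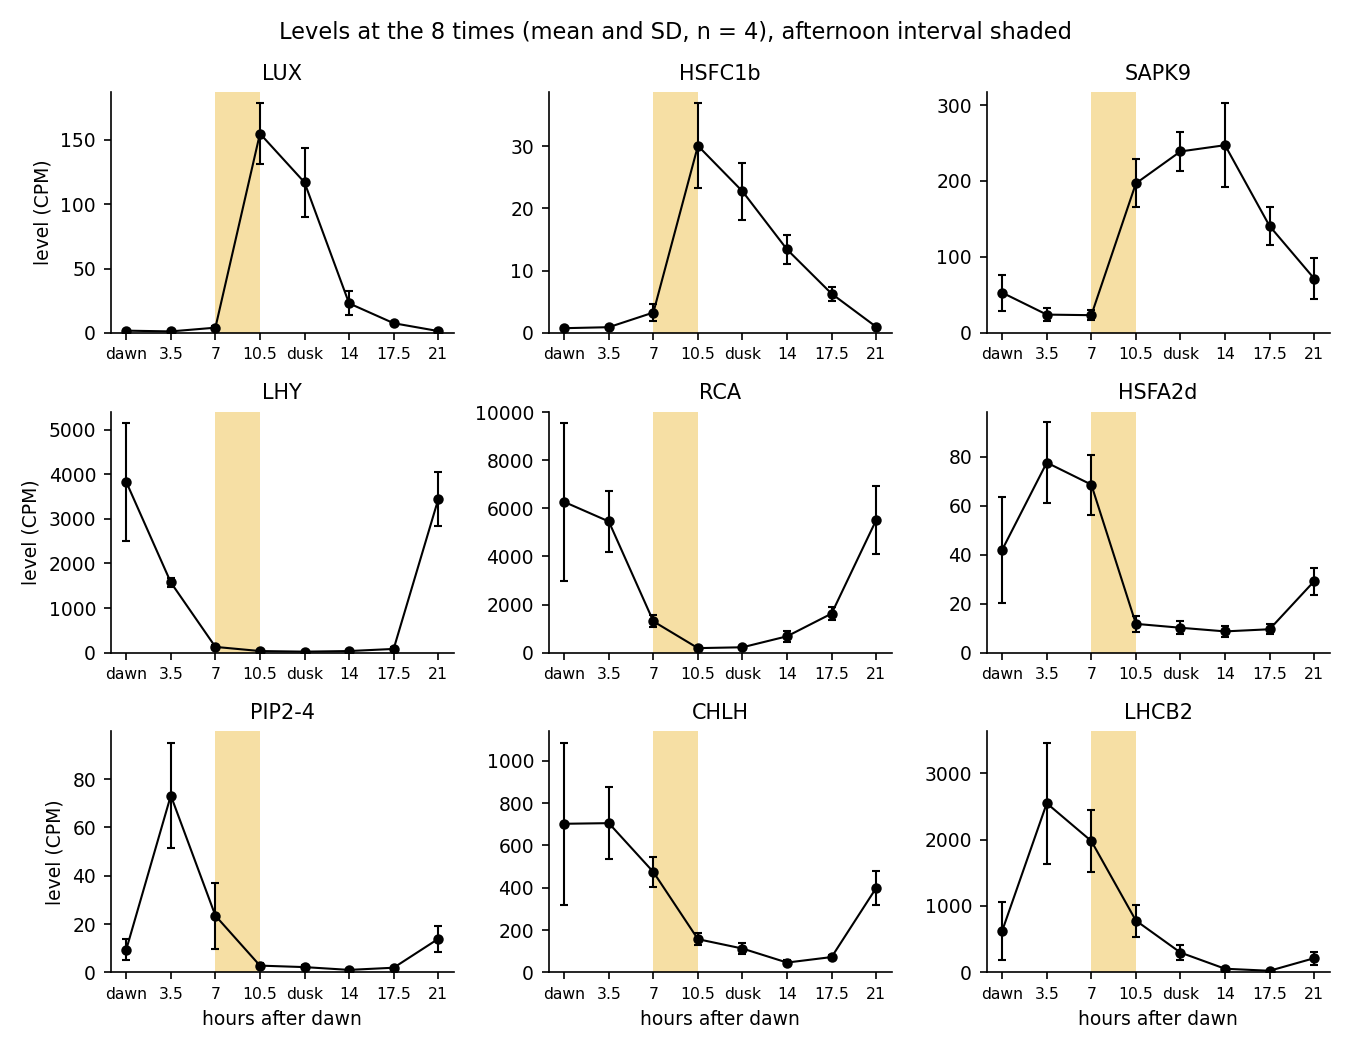
Levels (CPM, axes from 0) of 9 genes at the 8 times of day as mean and SD of 4 libraries, with the interval between 7 and 10.5 h shaded. LUX and HSFC1b have their highest means at 10.5 h (155 and 30.0 CPM), SAPK9 stays high to 14 h, and the other 6 have their highest means at dawn or 3.5 h.

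Over all genes, 2 rises and 2 falls were named by size alone among called genes without overlap and with at least 10 CPM in the higher group. They are given by identifier, since the tables used here pair no symbol with them. OS04G0675400 stood at 403, 436, 576 and 339.9 CPM at 10.5 h, against 8.87, 14.0, 8.72 and 11.4 CPM at 7 h (5.35 ± 0.29, adjusted p = 1.8e-12), and both of its turns passed (adjusted p = 0.00712 and 1.6e-10). OS02G0137700 stood at 4.71, 1.56, 2.75 and 9.09 CPM at 10.5 h, against 109, 95.8, 44.3 and 132 CPM at 7 h (-4.41 ± 0.45, adjusted p = 1.7e-07). Both lay wholly apart between the times.

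The other two rest on few counts or on 1 library. OS03G0782200 had 12, 3, 3 and 1 counts at 10.5 h and 362, 269, 172 and 154 counts at 7 h, so 3 of its later libraries were at or under the floor of 3 counts (adjusted p = 0.000475). OS09G0497500 had 2052, 5, 16 and 85 counts at 10.5 h and 3, 6, 6 and 4 counts at 7 h. Its rise (adjusted p = 0.00963) rested on replicate 1 of 10.5 h, the library with the highest pollen and tapetum markers, and without that library the adjusted p was 0.225.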

How the data were processed

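Panicle RNA of 32 samples was sequenced, 4 at each of 8 labelled times. The genome build IRGSP-1.0 and the tools HTSeq (version 0.6.0) and TopHat2 (version 2) are named per the submitters' processing notes. For the annotation and the strand setting, nothing is stated there. The authors deposited whole-number counts per gene, which were used as deposited, and a scaled table, which was not used. The build is of a japonica rice and the plants are indica, so reads of diverged genes can be missed.

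Counts were tested with edgeR 4.0.16 in R 4.3.3 (filterByExpr, TMM factors, glmQLFit, glmQLFTest, Benjamini-Hochberg at 0.05), in 1 fit of 32 libraries with 1 mean per time. Contrasts were 10.5 h minus 7 h and the 2 differences of neighbouring steps. Levels are CPM with TMM factors. Replicate numbers were not used as pairs, since the labels do not say what a number shares. Deviations of same-numbered libraries of the 2 times had correlations of -0.09, -0.17, 0.44 and 0.31. Those of different numbers ran from -0.43 to 0.39. These correlations do not settle if the libraries are paired, and fits with a replicate block are given as alternatives. The script was tested on simulated data.

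Alternatives were RLE factors, the library total alone, 2 other filters, DESeq2 1.42.0, limma 3.58.1, the 8 libraries alone, a replicate block and leaving out each library. Symbols were attached to identifiers from general knowledge and checked against a RefSeq table (assembly ASM3414082v1): of 416 pairs 289 matched, 118 were not in it and 9 contradicted it and were dropped. Named were every checked clock gene, up to 4 called genes per list and direction by adjusted p (otherwise the 1 with the lowest), 2 rises and 2 falls over all genes, and any further member described; 1 gene that the rule picks is not reported here. Members and lists were chosen with earlier results of these data known. Counting intervals and floors cover counting error alone.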

Additional observations from a re-analysis of the deposited data

Results flagged for a closer look

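The highest or lowest of 4 libraries stood far from the other three, by Dixon's gap test, in 11 of 148 groups of values looked at, and chance flags about 1 in 20 groups. In replicate 1 of 10.5 h, HSP24.1 stood at 9.07 CPM against a median of 3.25 CPM in the others, EAT1 at 8.60 CPM against 0.325 CPM, MADS63 at 25.2 CPM against 1.75 CPM and OS09G0497500 at 120.9 CPM against 0.667 CPM. In the same library the summed cell division level was 110 CPM (109.7), against 241 to 261 CPM in the others. In replicate 3 of 10.5 h the starch-degrading amylase AMY3D stood at 10.8 CPM against a median of 1.36 CPM. In replicate 4 of 10.5 h HSFA2d stood at 16.8 CPM against 9.94 CPM. In replicate 2 of 10.5 h the storage protein gene GluA2 stood lowest at 7.40 CPM against 8.36 CPM. GluA2 was the single checked endosperm marker tested, so its level is also the summed endosperm level. Between 7 and 10.5 h its log2 difference was 0.22. An endosperm identifier whose pairing was not checked had -1.35 (edgeR, adjusted p = 0.0639). In replicate 1 of 7 h CKX2 stood at 35.9 CPM against 8.77 CPM, and OS09G0497500 lowest at 0.189 CPM against 0.262 CPM, a difference of a few counts. What sets these libraries apart was not tested.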

How the results depend on the processing

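Of 36 named genes that were called, 23 were called under each of 18 alternatives (fewer where a filter removed the gene), and all 646 alternative values of the 36 kept their direction. Of 34 named genes not called, 6 were called in at least 1 alternative. LHCB2 and PHOT2 passed in several, EAT1 with DESeq2 (adjusted p = 0.0305), D14 of the strigolactone list with the replicate block in the fit of 32 libraries (0.0332), and LSI1 of mineral transport and the factor MYBS3 with the replicate block in the fit of 8 (0.0412 and 0.0465). Over the 9 settings that change the scaling, filter, tool, libraries fitted or block, the count of called genes ran between 626 and 1565 (1069 as reported). DESeq2 called 1565 genes, 807 of them higher. With the replicate block in the fit of 8 libraries 626 genes were called, 284 higher and 342 lower, and with the replicate block in the fit of 32 libraries 1177. The labels do not say what a replicate number shares, so whether a block belongs in the fit is not known. The cause of these changes in count was not tested. Without replicates 1 and 3 of 10.5 h, 497 genes were called, 207 higher, 290 lower and 365 at least 2-fold, with 21 list members, 165 turns at 7 h and 21 turns at 10.5 h. The cause was not tested, beyond the loss of samples that this choice brings. Leaving out 1 library gave 762 to 932 called genes, 310 to 400 higher, 415 to 602 lower, 467 to 563 at least 2-fold and 24 to 30 list members, 125 to 294 turns at 7 h and 86 to 182 turns at 10.5 h. The light-harvesting identifiers had 0 calls as reported, 6 of 13 in the fit of 8 libraries, 4 with library totals alone, 4 in each replicate block fit and 3 with DESeq2. The median over all genes moved by less than 0.1 (log2) under every scaling tried. Depth limits low genes: 88 of 6442 genes in the lowest class of level were called.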

Other observations

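Of 115 tested identifiers whose symbols were not in the reference table, 2 rose and 14 fell, where 1.81% of all genes tested rose and 2.34% fell. The falls included 4 of 17 in starch synthesis, 3 of 4 in chlorophyll synthesis, 2 of 7 in photorespiration and 2 of 4 in light signalling. They also included 1 of 5 in the abscisic acid list, 1 of 2 in redox and 1 of 6 in mineral transport. The rises were 1 of 6 clock identifiers and 1 of 3 in nitrogen assimilation. These identifiers are given as counts, since the pairing of symbol and identifier was not checked.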
